A study of Drosophila melanogaster with 2 samples.

Results

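Ada2b-eGFP was mapped by anti-GFP chromatin immunoprecipitation and sequencing in *Drosophila melanogaster* embryos, and the 928 peaks of the X chromosome are described here. They were taken by chromosome from the conservative list of the series, which held 4797 peaks on the dm6 assembly, so X carried 19.3% of the list. Arms 2L, 3L and 3R, which carried 897, 1022 and 1099 peaks and 3018 together, served as the comparison. Peaks on other chromosomes and arms were not compared. All chromatin came from whole transgenic embryos of 0 to 18 h that expressed the fusion from an insertion targeting Ada2b, and the single group consisted of 2 biological replicates. No sample without the fusion was analysed here, and the control behind the peak calls was not analysed here either. The sex of the embryos was not collected, so the number of X copies per autosome set is not known and cannot be told apart from occupancy per copy in any signal compared between X and an autosome. In whole embryos, a site bound in few cells and a site weakly bound in many cells cannot be told apart either.

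Ada2b is an adaptor subunit that holds the acetyltransferase Gcn5 in SAGA, a coactivator complex that acetylates histone H3 at genes and also carries a histone H2B deubiquitinase. The X of the fly differs from the autosomes in regulation: in males the MSL complex, guided by the roX noncoding RNAs and by GA-rich recognition elements, acetylates histone H4 on the single X through the acetyltransferase mof and raises transcription of its genes. In both sexes the early embryo reads the dose of X-linked signals to set the switch gene Sxl.

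The sequences below are the 201 bp centred on the summits of the strongest X peaks of each kind, read from the plus strand of the dm6 reference. They are shown because a short word, CACTG or its reverse complement CAGTG, recurs beside X summits, and each match is in capitals. The promoter peaks shown are those of Ugalt, Gapdh2 and MFS10, at chrX:2703783-2703983, chrX:15867889-15868089 and chrX:13131255-13131455. The intron peaks are those of ph-p, CG32772 and Tlk, at chrX:2137263-2137463, chrX:4910259-4910459 and chrX:3742117-3742317. Both peaks outside genes have CG4004 as the nearest gene and lie at chrX:12751296-12751496 and chrX:12752256-12752456.
Ugalt, promoter: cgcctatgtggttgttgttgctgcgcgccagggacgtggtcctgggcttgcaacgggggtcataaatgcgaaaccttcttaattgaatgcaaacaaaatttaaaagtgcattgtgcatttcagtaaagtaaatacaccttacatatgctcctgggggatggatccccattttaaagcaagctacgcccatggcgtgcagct
Gapdh2, promoter: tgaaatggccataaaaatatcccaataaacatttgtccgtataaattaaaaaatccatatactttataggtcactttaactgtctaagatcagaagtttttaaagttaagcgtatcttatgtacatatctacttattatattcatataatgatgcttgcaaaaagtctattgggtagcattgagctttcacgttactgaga
MFS10, promoter: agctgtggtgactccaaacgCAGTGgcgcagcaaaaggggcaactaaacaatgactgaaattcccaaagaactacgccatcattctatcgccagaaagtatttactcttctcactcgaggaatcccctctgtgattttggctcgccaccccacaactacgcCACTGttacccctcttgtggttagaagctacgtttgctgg
ph-p, intron: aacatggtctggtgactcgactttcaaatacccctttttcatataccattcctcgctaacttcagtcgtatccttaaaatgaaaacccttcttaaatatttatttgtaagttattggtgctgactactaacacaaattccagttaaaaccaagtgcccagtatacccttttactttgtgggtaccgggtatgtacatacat
CG32772, intron: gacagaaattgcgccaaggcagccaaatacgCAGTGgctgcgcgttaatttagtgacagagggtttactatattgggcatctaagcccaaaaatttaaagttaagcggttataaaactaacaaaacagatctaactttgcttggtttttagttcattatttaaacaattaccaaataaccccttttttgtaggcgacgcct
Tlk, intron: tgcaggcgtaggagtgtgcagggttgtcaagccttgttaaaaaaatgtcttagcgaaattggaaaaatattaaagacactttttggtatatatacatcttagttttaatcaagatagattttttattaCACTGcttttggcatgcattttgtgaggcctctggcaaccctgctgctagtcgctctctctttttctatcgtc
CG4004, stronger peak outside genes: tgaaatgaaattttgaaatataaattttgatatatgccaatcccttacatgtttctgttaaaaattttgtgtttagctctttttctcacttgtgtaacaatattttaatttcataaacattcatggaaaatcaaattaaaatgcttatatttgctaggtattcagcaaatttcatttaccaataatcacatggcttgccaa
CG4004, weaker peak outside genes: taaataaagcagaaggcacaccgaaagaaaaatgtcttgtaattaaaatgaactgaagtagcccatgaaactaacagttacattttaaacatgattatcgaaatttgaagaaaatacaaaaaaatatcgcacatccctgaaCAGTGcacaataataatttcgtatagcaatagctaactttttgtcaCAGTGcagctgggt

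MFS10 had a match on either side, centred 78 bp before and 63 bp after the summit. The CG32772 intron had a match 67 bp before the summit and the Tlk intron a match 30 bp after it. The weaker CG4004 peak had matches 43 and 89 bp after its summit. The windows of Ugalt, Gapdh2, ph-p and the stronger CG4004 peak held no match.

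The X also carried peaks over simple repeats, and the X peaks with the longest uninterrupted repeats are shown for GA and for CA, with the repeat in capitals. The GA repeat of 10 units lay in an intron of Raf, at chrX:2302160-2302360, and the CA repeat of 9 units lay at the start of TRAM, at chrX:935243-935443.
Raf, longest GA repeat: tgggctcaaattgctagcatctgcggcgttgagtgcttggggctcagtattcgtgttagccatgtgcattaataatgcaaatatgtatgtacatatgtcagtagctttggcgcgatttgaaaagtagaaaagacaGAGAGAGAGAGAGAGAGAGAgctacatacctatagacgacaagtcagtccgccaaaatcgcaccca
TRAM, longest CA repeat: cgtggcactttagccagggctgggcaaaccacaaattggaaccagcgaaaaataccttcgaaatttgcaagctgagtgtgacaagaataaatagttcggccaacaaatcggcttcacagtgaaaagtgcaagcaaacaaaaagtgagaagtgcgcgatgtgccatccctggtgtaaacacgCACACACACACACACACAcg

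X peaks lay in introns more often than the peaks of 2L, 3L and 3R together did, and at promoters and outside genes less often. Summits no more than 500 bp from a transcription start of a protein-coding gene made a promoter peak, and the remaining summits were placed in 5' UTRs, coding sequence, 3' UTRs, introns or outside protein-coding genes. Of the 928 X summits, 470 lay in introns, 308 at promoters and 123 outside protein-coding genes. The remaining summits lay in 3' UTRs (14), 5' UTRs (9) and coding sequence (4). On these few peaks, the 3' UTR share was 0.912 points higher on X than on the 3 arms together (95% Newcombe interval 0.214 to 1.94). The 5' UTR share was 0.605 points higher (0.0642 to 1.48). Per Mb of the class both intervals include equal densities, and in the list of replicate 1 the 3' UTR difference included 0. Coding sequence differed by -0.265 points (-0.715 to 0.449). Introns held 50.6% of the X peaks (95% Clopper-Pearson interval 47.4 to 53.9), against 35.6% on 2L, 35.7% on 3L and 39.5% on 3R. The X value stood above each of the 3 arms by more than the arms differed among themselves.

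Against the 3 arms together the intron share of X was 13.6 percentage points higher (95% Newcombe interval 9.95 to 17.2). The same difference was 16.0 points in the list of replicate 1 and 15.7 points in that of replicate 2 (15.9 ± 0.179, SD, n = 2). Promoters held 33.2% of the X peaks (interval 30.2 to 36.3), against 40.4%, 40.2% and 43.9% on 2L, 3L and 3R. That difference was -8.39 points (interval -11.8 to -4.84), and -10.8 ± 0.362 (SD, n = 2) over the replicate lists. Sequence outside protein-coding genes held 13.3% of the X peaks (interval 11.1 to 15.6), -6.46 points against the 3 arms together (interval -8.96 to -3.75). In this class the arms were not alike: 2L stood at 22.7% and 3L at 22.6%, while 3R stood at 14.6%, within the interval of X. Intervals here cover counting error only and treat each peak as independent, though many intron peaks shared a host gene. The replicate lists are not independent of the conservative list, which was made from both replicates.

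**Figure D1:**
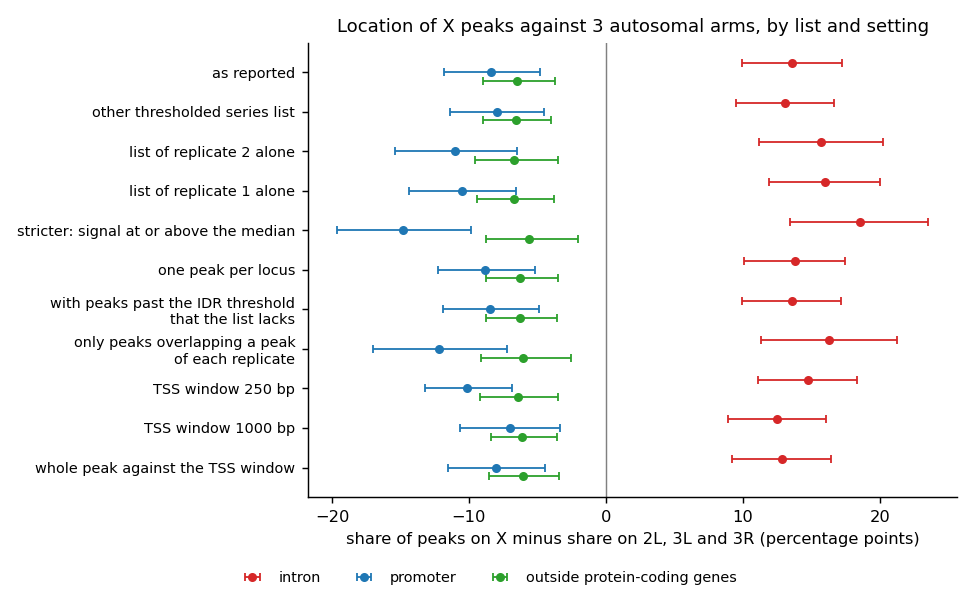
Share of X peaks minus share of the peaks of 2L, 3L and 3R together, in percentage points (horizontal axis), for introns, promoters and sequence outside protein-coding genes, by peak list and setting. Points are differences and bars are 95% Newcombe intervals. The intron difference was 13.6 as reported and its interval lay above 0 in every setting plotted, while those of the promoter and outside differences lay below 0.

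Intron sequence by the same rule made up 41.2% of X and 36.7%, 37.2% and 43.3% of 2L, 3L and 3R. Counted per Mb of intron sequence, X carried 48.5 intron peaks, against 37.0, 34.9 and 31.2 on 2L, 3L and 3R. The ratio of X to the 3 arms together was 1.43 (exact interval 1.28 to 1.60), and 1.57 ± 0.0198 (SD, n = 2) over the replicate lists. Per Mb of promoter sequence X carried 119 promoter peaks, against 127, 137 and 133. That ratio was 0.896 with an interval from 0.789 to 1.02, which includes equal densities. Per Mb outside protein-coding genes X carried 19.5 peaks against 27.3, 23.7 and 19.0, a ratio of 0.840 (interval 0.686 to 1.02), which includes equal densities too. Of these 3 densities over whole arms, only the intron density had an interval that excludes equal densities. That interval treats each peak as independent, though the 470 X intron peaks shared 220 host genes, so it may be too narrow. Arm ends with few or no peaks, such as bins 1 to 4 of 1 Mb on 3R with 0 peaks, were counted in. No density per class was run without them, so the 3 ratios rest on this choice.

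**Figure D2:**
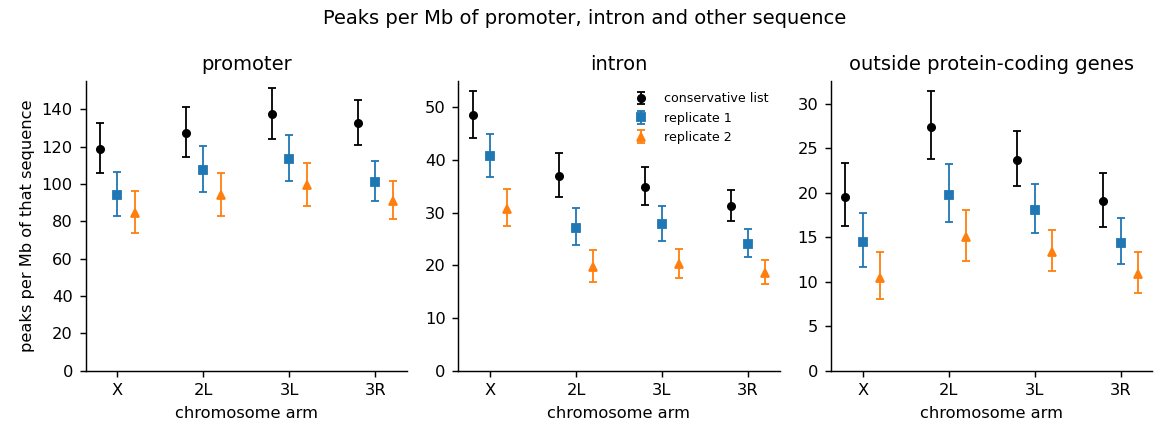
Peaks per Mb of promoter sequence, intron sequence and sequence outside protein-coding genes (vertical axes) on X, 2L, 3L and 3R, in the conservative list and in the lists of both replicates. Points are densities and bars are exact 95% Poisson intervals. On introns X stood at 48.5 peaks per Mb in the conservative list and 2L, 3L and 3R between 31.2 and 37.0.

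Counted over all classes, peaks were only slightly denser on X. The X carried 39.4 peaks per Mb over its 23.5 Mb, against 38.1 on 2L, 36.4 on 3L and 34.3 on 3R. The ratio of X to the 3 arms together was 1.09 (exact interval 1.01 to 1.18), and 1.13 in each replicate list. X exceeded 2L by less than the arms differed among themselves. The excess over 1 was lost when density was counted over the span from the first to the last peak (1.04, interval 0.962 to 1.12). It was also lost after adding 31 peaks of 2L, 7 of 3L and 65 of 3R (1.06, interval 0.981 to 1.14). In the ranked list these passed the authors' threshold on the irreproducible discovery rate (IDR, a measure of repeatability between replicates), but they are not in the conservative list, and X had 0 of them among 928. Per protein-coding gene, of which X has 2196, the ratio was 1.23 (interval 1.15 to 1.33).

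Neighbouring X summits were a median of 9531 bp apart (order-statistic interval 8223 to 10935). The median was 10646 bp (9904 to 11358) on the 3 arms, and the intervals overlap. Of the spacings on X, 12.4% were under 1000 bp, against 10.5% on the arms. Peak width gave no difference in its median, which was 310 bp on X and on each arm because the authors' caller returned that width for most peaks. Exactly 310 bp was the width of 77.2% of the X peaks and of 82.8% of those of the arms, and 22.5% of the X peaks were narrower against 17.1%.

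X peaks were spread over the whole arm but thinned toward its far end, and the peaks of each comparison arm thinned at an end too. The 23 full bins of 1 Mb held 4 to 70 peaks, with a median of 40, and the most lay in bin 7. Beyond 20 Mb, 3.54 Mb of sequence carried 36 peaks. The longest stretch between X summits, of 856715 bp, ran from chrX:21631762-22488477. On the arms the longest was 1201119 bp on 2L, 1875320 bp on 3L and 331829 bp on 3R. Bin 23 of 2L held 1 peak, and bin 24 of 3L and bins 1 to 4 of 3R held 0. The densest 50 kb held 14 peaks with summits from 7666806 to 7709176, 12 of them in introns and 2 at promoters. That stretch covers ct, which encodes a homeodomain transcription factor of sense organ and limb development, and CHES-1-like, which encodes a forkhead transcription factor.

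The signal of a peak, the enrichment value given by the authors' caller, has no fixed unit and is compared here only within a list. Intron peaks were stronger on X than on the arms, with a median signal of 92.8 (order-statistic interval 86.8 to 102), against 76.1, 81.2 and 84.1 on 2L, 3L and 3R and 80.6 (77.4 to 84.8) on these together. The ratio of medians was 1.15, and 1.11 ± 0.0163 (SD, n = 2) over the replicate lists. The interval of 3R alone (78.0 to 88.8) overlapped that of X. In the replicate lists the interval of X overlapped that of the 3 arms together. These were 60.6 to 68.9 and 56.4 to 62.1 in replicate 1, and 50.7 to 60.5 and 46.4 to 51.3 in replicate 2. Promoter peaks had a median of 92.8 on X (84.1 to 103) and 95.2 on the arms (91.6 to 101), so their intervals overlap. Over all classes the medians were 89.4 and 84.9. On the arms, the median of promoter peaks was higher than that of intron peaks, while on X both rounded to 92.8.

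Of the 470 X intron peaks, 257 (54.7%) overlapped a thresholded peak of each replicate by at least 1 bp, against 41.1%, 49.3% and 49.5% on 2L, 3L and 3R. Against the 3 arms together the difference was 7.63 points (Newcombe interval 2.25 to 12.9), but X exceeded 3R by less than the arms differed among themselves. At promoters the shares were 59.1% and 58.6%, a difference of 0.525 points with an interval from -5.66 to 6.54. Over all 928 X peaks, 506 were in both replicates' lists, 172 in that of replicate 1 alone, 65 in that of replicate 2 alone and 185 in neither. Among the 916 X peaks with a signal in both ranked lists, the Spearman rho between replicates was 0.811, which describes peaks that were selected for repeating.

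The strongest X promoter peak lay at Ugalt (FBgn0024994), which encodes a UDP-galactose transporter of the Golgi, with its summit 31 bp upstream of the start. Its signal was 2109 in the conservative list, 1280 in the list of replicate 1 and 844 in that of replicate 2. In each list the Ugalt peak was stronger than any peak of 2L, 3L or 3R, whose highest values were 1868, 1024 and 842 in the same order of lists. Gapdh2, which encodes the glycolytic enzyme glyceraldehyde-3-phosphate dehydrogenase, followed at 808 (497 and 313 in replicates 1 and 2). MFS10, a transporter gene of the major facilitator superfamily, stood at 752 (407 and 346). These 3 summits lay 31 to 161 bp upstream of the start.

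Further X promoter peaks lay well below Ugalt in signal. Those of regulators were at ph-p (637), whose product is a subunit of the Polycomb complex PRC1, at Atf3 (635), a bZIP transcription factor gene, at org-1 (475), a T-box gene, and at bbx (379), an HMG-box gene. Those of genes of the nervous system were at moody (564), which encodes a receptor of the glia of the blood-brain barrier, at elav (558), the RNA-binding protein of neurons, and at dnc (542), a cAMP phosphodiesterase of learning. Genes of the secretory pathway and of membranes were TRAM (561), a translocon-associated protein, and bves (458), whose peak also serves Stt3A, a subunit of oligosaccharyltransferase. Ptpmeg2, a tyrosine phosphatase gene, carried strong peaks at 2 separate starts (459 and 391), and CG3009 stood at 537. All 15 overlapped a thresholded peak of each replicate.

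The strongest X intron peaks, those given in this paragraph, stood below the Ugalt promoter peak (2109) but above that of Gapdh2 (808), the next in signal. The first lay in ph-p (1410 in the conservative list, 817 in replicate 1 and 597 in replicate 2), 508 bp from the nearest start and so just outside the promoter window. ph-p and its tandem copy ph-d share much of their sequence, and how reads that match both were counted is not given in the sources used here. CG32772 followed at 1223 (722 and 484), 1257 bp downstream of its start. Tlk, which encodes the Tousled-like kinase of chromatin assembly, stood at 1018 (538 and 487), 2320 bp downstream. norpA, the phospholipase C of phototransduction, stood at 973 (544 and 436), and CG3726 at 933 (494 and 445).

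Further strong intron peaks lay in NFAT (745), the gene of a transcription factor, in CHES-1-like (733), in Raf (590), the kinase that relays Ras to the MAP kinase cascade, and in LPCAT (470), a phospholipid acyltransferase. Each of these 9 summits lay 508 to 2320 bp from a start of its host gene. Outside protein-coding genes, both strongest peaks lay near CG4004, at 1066 and 665, with summits 5079 and 6039 bp from its start. Both lay within 500 bp of the start of a noncoding RNA gene. The nearest starts to the others were those of CG17896 (639), 505 bp away, Paics (376), a gene of purine synthesis, 6103 bp away, and Atf3 (346), 1913 bp away. The summit assigned to Paics, at 12754514, lay close to the CG4004 summits at 12751396 and 12752356.

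**Figure D3:**
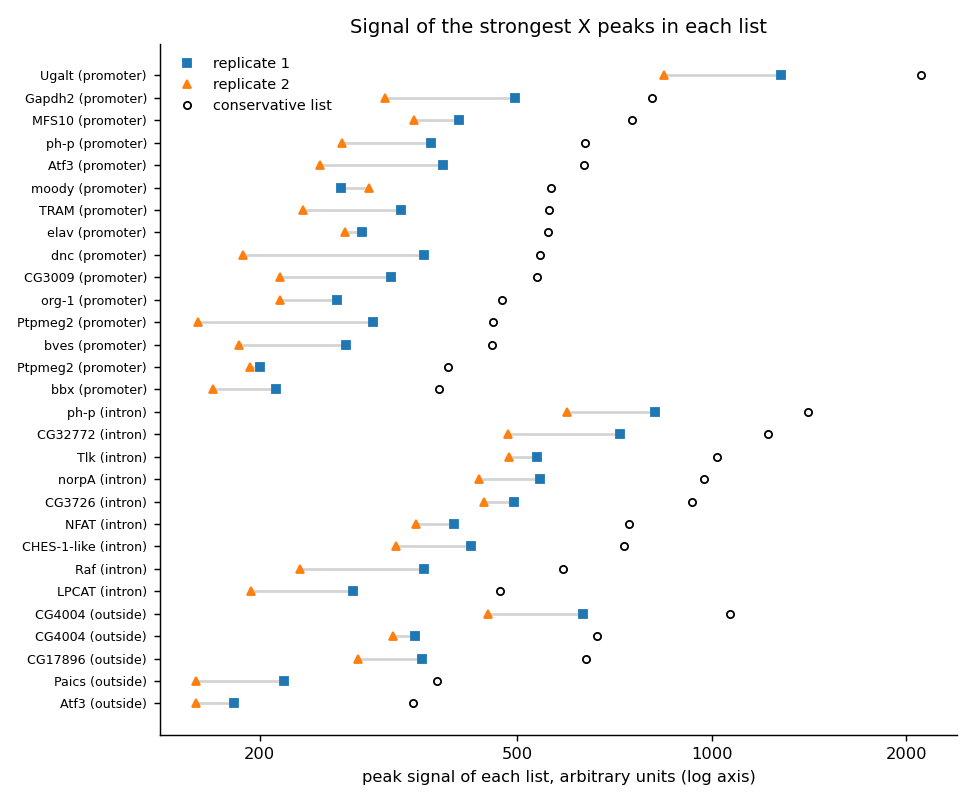
Signal (horizontal axis, arbitrary units, log scale) of the 15 strongest promoter peaks, 9 of the 10 strongest intron peaks and the 5 strongest peaks outside protein-coding genes of X, labelled by gene. Squares are replicate 1, triangles replicate 2 and circles the conservative list, and signals are on a scale of their own in each list. Ugalt stood highest of the peaks plotted in each list, at 2109 in the conservative list, 1280 in replicate 1 and 844 in replicate 2.

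The 470 intron peaks of X fell in 220 host genes (the shortest protein-coding gene over the summit), or 2.14 per host, against 1.95, 1.90 and 1.72 on 2L, 3L and 3R. Hosts with 3 or more peaks numbered 54 on X and held 54.7% of the X intron peaks, while such hosts held 47.6%, 50.1% and 40.1% on the arms. X was highest in both measures, but it exceeded the nearest arm by less than the arms differed among themselves, and no test of these differences was run. When every gene over a summit was counted, 230 X genes held an intron peak, 10.5% of the protein-coding genes of X. Distance from the start was close to that on the arms: the median was 2998 bp against 3071 bp, and 36.2% against 36.9% of intron summits lay over 5 kb from a start.

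The X gene with the most intron peaks was kirre (FBgn0028369), which encodes an immunoglobulin protein of muscle founder cells and spans 394 kb. It held 16 peaks, where no gene of the arms held more than 9, and their signals ranged from 47.1 to 170 with a median of 80.3. CHES-1-like held 11 within 27.0 kb, or 40.7 per 100 kb against 4.06 in kirre. Their median signal was 118, and it also had a promoter peak at 323. Tlk and CG1677 held 10 each, Raf, CG12535 and CG43658 held 9 each, and CG14434 and Ptp10D, a receptor tyrosine phosphatase of axon guidance, held 7 each. Hr4, a nuclear receptor gene of the ecdysone response, held 6 with the highest median of these hosts, at 178. Of these 10 genes, CHES-1-like, CG1677 and CG14434 had a promoter peak.

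The intron difference was also counted without these 10 hosts. They held 98 of the X intron peaks (20.9%). Without them and without the 10 leading hosts of each arm, the intron share of X was 11.98 points higher than on the 3 arms (interval 8.20 to 15.8). Without the X hosts alone the intron share of X was 7.77 points higher (4.0 to 11.6), a figure that is low by construction. Hosts were ranked on every arm by the same intron peaks that are compared, so both figures are a description. Genes of X were longer, with a median of 2.52 kb against 2.08 kb, and 69 spanned over 50 kb. In hosts of up to 10 kb the intron density of X was 1.10 times that of the arms (interval 0.795 to 1.5), which includes equal densities. In hosts of 10 to 50 kb the ratio was 1.64 (1.41 to 1.90), and in longer hosts it was 1.41 (1.16 to 1.72). In the longest hosts 2L, at 30.2 peaks per Mb of intron, stood level with X, at 30.02.

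**Figure D4:**
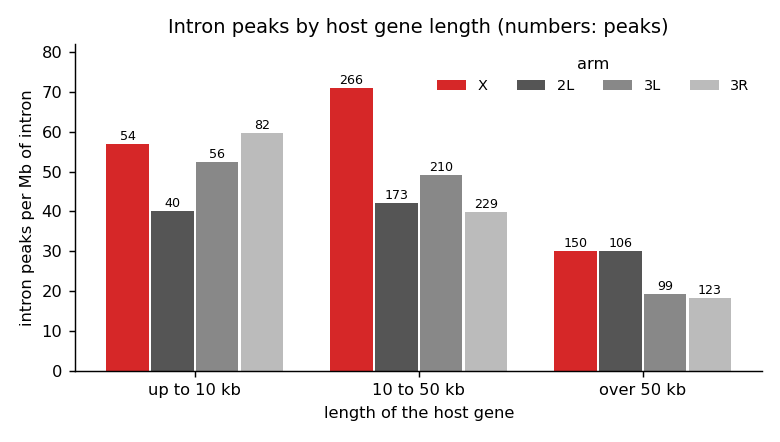
Intron peaks per Mb of intron sequence (vertical axis) on X, 2L, 3L and 3R, by the length of the host gene (horizontal axis), in the conservative list. Numbers over the bars are counts of peaks. In hosts of 10 to 50 kb X stood at 71.0 per Mb and the 3 arms between 39.8 and 49.2.

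A smaller share of the genes of X had a peak at a start. Of 2196 protein-coding genes on X, 345 (15.7%) had a summit within 500 bp of a start, against 1616 of 8817 (18.3%) on the 3 arms. The difference was -2.62 points (Newcombe interval -4.29 to -0.848). With a window of 1000 bp it was -1.91 points, with an interval that ends at -0.00219. X had 308 promoter peaks for its 2196 genes, and the arms had 1255 for 8817. Of the 308 on X, 74 (24.0%) lay within 500 bp of the starts of more than 1 gene, against 38.2% on the arms. That difference was -14.1 points (interval -19.3 to -8.42). A peak at several starts counts for each of its genes, so the share of genes is not separate from it. How many of all starts lie this near a start of another gene was not counted. Gene layout and peak placement thus cannot be told apart here. The summit lay upstream of the nearest start in 80.5% of X promoter peaks and in 82.9% of those of the arms, a difference of -2.43 points (interval -7.61 to 2.16).

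Of the genes with a part in X dosage, mof had no promoter or intron peak, and the nearest summit was 3790 bp from its start. The noncoding roX1 and roX2 genes are outside the classes used here, which rest on protein-coding genes, and the summits nearest to their starts were 5956 and 1397 bp away. Of 6 genes of X counting and sex determination, Sxl had a peak at its start (107 in the conservative list, 62.6 in replicate 1 and 41.3 in replicate 2) and 3 intron peaks. The peak at the Sxl start overlapped a thresholded peak of replicate 1 but none of replicate 2. The other 5 genes, among them sisA and sc, had no peak at their starts. These counts stand beside 15.7% of all protein-coding genes of X and are too small to set apart from it.

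The counts of the following lists are given beside the same 15.7% with a promoter peak, and no list was tested against it. The cytosolic ribosomal protein genes of X had promoter peaks in 6 of 13 cases (46.2%), led by RpS28b (131), RpL22 (94.6) and RpL17 (85.9). The peaks of RpS28b and RpL17 overlapped a thresholded peak of each replicate. That of RpL22 overlapped one of replicate 1 alone, that of RpS6 one of replicate 2 alone, and those of RpL36 and RpS15Aa one of neither. RpS14a and RpS14b, a tandem pair with near-identical sequence, had no promoter peak, and unique assignment of reads there is uncertain. The mitochondrial ribosomal protein genes of X had no promoter peak in 11, among them mRpL14 and mRpL16. None of the 8 yolk and chorion genes had a peak, Yp1 and Cp36 included. At the share of all protein-coding genes of X, lists of this size would hold few peaks. Of the 13 chromatin regulators, 4 (30.8%) had promoter peaks: ph-p, Top1 (243), the DNA topoisomerase, Spt6 (91.4), a histone chaperone of transcription elongation, and ph-d (60.7). The ph-d peak overlapped a thresholded peak of replicate 1 alone. Tip60 and trr had no promoter peak. Of 10 genes of the cell cycle and DNA repair, 3 had peaks, led by mei-41 (301), the ATR checkpoint kinase, then Top1 and mei-9 (125), a repair endonuclease.

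Of all protein-coding genes of X, 15.7% had a promoter peak and 10.5% an intron peak, and the counts of the next lists stand beside these shares without a test and without regard to gene length. Of 25 developmental transcription factor genes, usp and Mnt had promoter peaks (84.7 and 84.6), while 9 had intron peaks, 23 in all, led by Hr4 with 6 and ct with 4. The starts of gt and btd had no peak. Of 17 signalling genes, sgg (349), the GSK3 kinase of Wnt signalling, and N (57.2), the Notch receptor, had promoter peaks, and 5 had intron peaks, 9 of them in Raf. The N promoter peak overlapped no thresholded peak of either replicate. Of 16 neuronal genes, 4 had promoter peaks, moody, elav, dnc and rdgB (94.5), and 9 had intron peaks, among them Nrg with 6. para and cac, which encode a sodium and a calcium channel, had neither. Of 8 germ line genes, Sxl had a promoter peak and 3 had intron peaks. Of 7 eye colour and pigmentation genes, car had a promoter peak (79.7), which overlapped a thresholded peak of replicate 2 alone, while w and y had none.

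Simple repeats were no more frequent at X peaks than in X sequence as a whole. The letters GAGAGAGA or their reverse complement occurred within 100 bp of the summit in 13 X peaks (1.40%), against 1.54% of all 201 bp windows of X. On the 3 arms the values were 1.19% of peaks and 1.05% of windows. The difference between X and the arms was 0.208 points with an interval from -0.529 to 1.24. CACACACA on either strand occurred in 3.99% of the X peaks and in 5.77% of X windows, against 2.82% of peaks and 3.79% of windows on the arms. That difference was 1.17 points (interval -0.0920 to 2.73), and the windows of X exceeded those of the arms in the same direction. Within 150 bp of the summit the differences grew to 1.57 points for GA (interval 0.249 to 3.18) and 3.09 points for CA (interval 1.18 to 5.26), which exclude 0. The share of all windows was not counted at this width, so these differences are not set apart from the repeat content of X as a whole. Summit windows were AT-rich: the median GC content was 34.8% on X and 34.3% on the arms, against 42.3% for windows of either.

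Of the known promoter elements, TATCGATA, the core of the DRE element, was in 4.22% of X promoter peaks and in 6.37% of those of the arms, a difference of -2.15 points (interval -4.44 to 0.962). All X promoter windows held it in 2.65% of cases and those of the arms in 1.63%. GGTCACACT, the core of the motif bound by M1BP, was in 0.649% of X promoter peaks and 2.23% of those of the arms, a difference of -1.58 points (interval -2.66 to 0.238). All promoter windows held it in 1.13% of cases on X and 1.06% on the arms. CAGGTAG, the motif of the early activator Zelda, was in 1.29% of X peaks and in 1.00% of X windows. All were counted on both strands, and both intervals include no difference.

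The words most raised at X intron peaks over X intron windows were variants of CACTG. Of the 10 words of 7 letters with the highest ratio, 6 contained it on either strand. The first, ACAGTGG, was in 14.5% of X intron peaks and 2.65% of X intron windows, a ratio of 5.45. On the arms it was in 10.5% of intron peaks and 2.36% of intron windows, a ratio of 4.44. Not every word leaned the same way: CAGTGTA had a ratio of 4.51 on X and 5.13 on the arms, CACTGAG 4.22 and 4.84, and ACTGTAC 3.82 and 4.19, while CACTGTA stood at 5.32 and 5.24. These words were chosen on the X values after these were seen, so the ratios and their comparison with the arms are a description. At promoter peaks, which the choice did not use, ACAGTGG lay in 13.0% on X and in 7.81% on the arms, against 2.89% and 2.33% of all promoter windows.

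CACTG itself lay more often to either side of the intron summits than on them. The intron windows printed above varied, with a match 67 bp before the summit in CG32772, 30 bp after it in Tlk and none in ph-p. In bins of 20 bp the frequency of CACTG at X intron peaks was 3.62 and 2.98 matches per 100 peaks beside the summit. It reached 12.6 per 100 peaks in the bins centred 90 and 70 bp before the summit. Counting the zones from 60 to 120 bp on either side, 46.4% of X intron peaks had a match in at least 1 zone, against 44.7% of those of the arms and 18.9% of X intron windows. Within 30 bp of the summit, 10.2% of X intron peaks had a match, against 9.68% of X intron windows. The same shares were 11.0% and 12.4% at promoters and 15.4% and 9.87% outside genes. Both zones had a match in 14.7% of X intron peaks, against 10.3% of those of the arms and 1.18% of X intron windows. The word was found on the X intron peaks, so these intron values are a description. At promoter peaks at least 1 zone had a match in 44.5% on X and 33.5% on the arms, a difference of 11.0 points (interval 4.95 to 17.2), and both zones in 9.74% and 5.74%, a difference of 4.0 points (0.832 to 8.0). Of all promoter windows, 22.4% on X and 22.0% on the arms had a match in at least 1 zone, and 1.53% and 1.44% in both. Outside genes at least 1 zone had a match in 47.2% and 44.0%, a difference of 3.12 points whose interval (-6.37 to 12.7) includes 0. Both zones had one in 17.1% and 10.8% there, a difference of 6.32 points (0.0561 to 14.3). Of all windows outside genes, 18.6% on X and 18.2% on the arms had a match in at least 1 zone, and 1.19% and 1.05% in both. The zones were set after the profile had been seen, on X and arms alike, and ACAGTGG contains CAGTG, so the counts of both overlap.

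**Figure D5:**
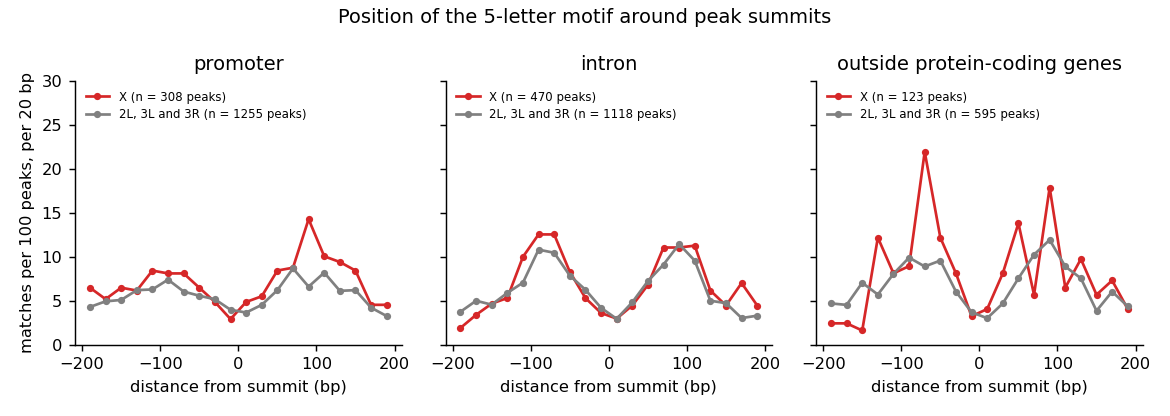
Matches to CACTG or CAGTG per 100 peaks, per 20 bp (vertical axis), by distance of the match from the peak summit in bp (horizontal axis), for promoter peaks, intron peaks and peaks outside protein-coding genes on X and on 2L, 3L and 3R together. On intron peaks of X the frequency rose from 2.98 beside the summit to 12.6 at its highest, and the 3 arms had the same form.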

How the data were processed

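Per the labels, sonicated embryo chromatin of 200 to 800 bp was precipitated with anti-GFP, in 2 biological replicates. Per the notes deposited with the samples, the authors made peaks from dm6 alignments and a control. The sources used here do not give the aligner or peak caller. The deposited signal is the caller's value per peak, not normalized between lists. The deposited score is the authors' rescaled IDR, and its lowest value was 830. The deposited −log10 IDR of the ranked lists was used only to find peaks past the threshold of 2. The lists hold no read depth per sample, so precision rests on peak numbers.

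Genes came from Ensembl release 115 and sequences from the NCBI Release 6 reference. Where location classes overlapped, a promoter came before a 5' UTR, then coding sequence, 3' UTR and intron. Motif backgrounds were all windows of 201 bp laid end to end along an arm. With 1 group there was no test between conditions: differences carry 95% intervals (Newcombe for shares, exact conditional for densities, order-statistic for medians), beside both replicates' own lists. The estimators were tested on simulated data with independent draws, so the effect of peaks that cluster in a host gene was not covered. The signals given for a replicate are those of the overlapping entry with the nearest summit in its own ranked list. The members and gene lists were chosen with earlier results of these data known. Genes named were, by rule, those of the 15 strongest promoter, 10 strongest intron and 5 strongest outside peaks of X, the 10 X genes with most intron peaks, and up to 3 members of each of the gene lists; 1 of the intron peaks is not reported here. Genes such as Hr4, ct, Nrg, Raf, N and rdgB named for their lists' intron peaks or beyond 3 members were chosen after their values were seen. The words related to CACTG and the length bands of host genes were chosen after the data were seen. Alternatives were the other thresholded series list, each replicate alone, the stronger peaks, 1 peak per locus (300 bp), windows of 250 and 1000 bp around starts, whole-peak overlap, other measures of arm length and other repeat windows, with 2 added after the data were seen. The software was scipy 1.17.1, numpy 2.4.6 and pandas 2.3.3 under Python 3.11.15, with matplotlib 3.10.9 for figures.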

Additional observations from a re-analysis of the deposited data

Results flagged for a closer look

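The other thresholded list of the series held 969 peaks on X, of which 122 are not entries of the conservative list. The report's own values rest on the conservative list and the replicate lists, and the 122 entered only where the other list was run as an alternative. Of these 122 peaks past the authors' threshold, 66 lay in introns, 38 at promoters and 14 outside protein-coding genes. For 114 of them no summit of the conservative list lay within 300 bp. Their signals ran from 2.45 to 82.8 with a median of 51.7. In turn, 81 X peaks of the conservative list are not in the other list.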

How the results depend on the processing

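The intron, promoter and outside shares and the share of genes with a promoter peak kept their direction and an interval that excludes 0 under each alternative run. The intron difference ranged from 12.5 to 18.5 points, the highest among peaks at or above the median signal. The density ratio of 1.09 lost its interval above 1 with the span from first to last peak (1.04) and with the added peaks past the IDR threshold (1.06), and was 1.13 in either replicate alone. The signal ratio of 1.05 moved to 1.04 in the other thresholded list and to 1.04 among the stronger peaks. The spacing ratio of 0.895 moved to 0.806 among the stronger peaks and 0.812 for peaks found in both replicates, and lay at 0.793 and 0.870 in the replicate lists. The GA difference of 0.208 points reached 1.57 with 150 bp each side, a width at which no share of all windows was counted. The CA difference of 1.17 points reached 3.09 with 150 bp each side. It was 1.32 with 1 peak per locus (interval 0.0365 to 2.91) and 1.78 in the list of replicate 2 (0.230 to 3.78), which exclude 0. In the list of replicate 1 it was 1.15 (-0.229 to 2.88), which includes 0. The cause was not tested. The width ratio was 1 in each. Of the alternatives, adding the peaks past the threshold and keeping those of both replicates were chosen after seeing the data. No paired analysis was possible because there was 1 group. Read depth was not analysed here, so weak sites that are not listed cannot be called unbound, and classes with few peaks, such as UTRs, give wide intervals.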
